A study of Mus musculus with 4 samples.

Results

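The mitochondrial ribosomal protein genes were followed in brain RNA of CAST/EiJ and C57BL/6 mice and of both reciprocal F1 hybrids. A gene was a member when its symbol was Mrpl or Mrps followed by a number and at most 1 further letter, and its FPKM (fragments scaled to transcript length and to library size) was summed over its transcripts. This gave 78 genes with 323 transcripts among 51905 genes with 128603 transcripts. By name alone, 49 genes were counted for the large subunit and 29 for the small subunit. Mrps18a and Mrps36 were kept in the small-subunit count, although their proteins are known from elsewhere, as described below. The groups were F1r (strain CAST/EiJ x C57BL/6), F1i (C57BL/6 x CAST/EiJ), CAST (CAST/EiJ) and B6 (C57BL/6). All were labelled wild type, and the labels name neither the dam of a cross nor an age or sex. Each group was 1 library, made from RNA pooled over the left hemispheres of 5 mice. No difference therefore has a replicate check, no test was possible and no error can be given.

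The mitochondrial ribosome translates the few messenger RNAs of the mitochondrial genome, which encode core subunits of the respiratory chain and of ATP synthase. Its ribosomal RNAs come from mitochondrial DNA, whereas all of its proteins are encoded in the nucleus, made in the cytosol and imported. Compared with its bacterial ancestor it has less RNA and more protein, and many of its proteins have no bacterial relative. Neurons depend heavily on oxidative phosphorylation, and inherited defects of the mitochondrial ribosome often affect the brain and heart.

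The B6 library was the deepest. From the FPKM that a single fragment was worth, the estimated depth was 0.724 of that of B6 in F1r, 0.814 in F1i and 0.722 in CAST. Markers of neurons, astrocytes, oligodendrocytes, microglia, endothelium and choroid plexus were present in every library, and 6 markers of liver, heart, muscle, kidney and pancreas together reached at most 1.89 FPKM. The oligodendrocyte markers stood apart between the parents: their summed FPKM was 1538 in F1r, 1692 in F1i, 1236 in CAST and 2006 in B6, and 6 of 6 had a lower value in CAST than in B6. The 4 choroid plexus markers, also lower in value in CAST in 4 of 4, summed to 540 FPKM in F1r, 648 in F1i, 391 in CAST and 638 in B6. The 8 neuronal markers summed to 1395 FPKM in F1r, 1293 in F1i, 1205 in CAST and 1313 in B6. In RNA from whole hemispheres, fewer cells of a type and less RNA per cell cannot be told apart.

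The 78 genes lay on 17 chromosomes, with 11 genes on chromosome 11, 8 on chromosome 17 and 7 on chromosome 6, and none on the X chromosome. They often shared a start region with another gene. A protein-coding gene on the opposite strand had its start site within 1000 bases of that of 33 of 78 members (42.3%), against 1907 of 12293 protein-coding genes tested (15.5%). Among these pairs, Mrpl36 and the complex I subunit gene Ndufs6 started 29 bases apart, Mrpl49 and the cytosolic ribosomal protein gene Fau 59 bases apart, and 2 members, Mrps11 and Mrpl46, 412 bases apart. These 3 pairs were chosen after their distances were seen.

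Promoter windows from 250 bases before to 50 bases after the start site were held for 69 of the 78 members (RefSeq, GRCm38.p6), and 3 short words were searched on both strands. They were GCGCATGC, the core of the site of NRF1, a factor known to act on nuclear genes for mitochondrial proteins; CCGGAAGT, the core of the site of ETS factors such as GABP, which contains Gabpa; and AAGATGGCG, the core of the site of YY1. The NRF1 word was present in 8 members (11.6%), against 3.61% of 17492 protein-coding genes. These protein-coding genes were not filtered on expression, whereas every member was expressed. The ETS word was present in 11 members (15.9%), against 5.28%. The YY1 word was present in 8 members (11.6%), against 1.92%. Any of the 3 was present in 25 members (36.2%), against 10.2%, and 2 members held more than 1 kind. The members' windows had a median GC content of 58.3% and a median of 21 CpG dinucleotides, against 56.3% and 13 for protein-coding genes, so the sequence background was not the same. A match describes these letters and is not a measured binding site.

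Of the 5 members that were at least 2-fold lower in CAST than in B6, 1 held a word. The 150 bases upstream of their start sites are shown because these genes carry the main parental difference, and the word is in capitals. On GRCm38.p6 they are chr7:100608302-100608451, minus strand (Mrpl48), chr11:59202336-59202485, plus strand (Mrpl55), chr11:94653641-94653790, plus strand (Mrpl27), chr7:28741822-28741971, minus strand (Mrps12) and chr2:24975099-24975248, minus strand (Mrpl41), each written 5′ to 3′ along the gene's own strand.
Mrpl48: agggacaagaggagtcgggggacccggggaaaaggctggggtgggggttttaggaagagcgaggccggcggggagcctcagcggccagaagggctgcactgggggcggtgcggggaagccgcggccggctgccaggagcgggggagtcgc
Mrpl55: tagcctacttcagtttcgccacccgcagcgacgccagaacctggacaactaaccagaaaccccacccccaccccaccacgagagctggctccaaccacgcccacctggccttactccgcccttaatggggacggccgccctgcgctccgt
Mrpl27: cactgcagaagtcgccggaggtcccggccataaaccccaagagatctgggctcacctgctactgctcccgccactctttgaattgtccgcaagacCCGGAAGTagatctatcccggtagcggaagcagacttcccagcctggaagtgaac
Mrps12: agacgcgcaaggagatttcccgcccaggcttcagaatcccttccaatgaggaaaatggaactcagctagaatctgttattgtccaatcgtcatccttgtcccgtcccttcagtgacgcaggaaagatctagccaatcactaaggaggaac
Mrpl41: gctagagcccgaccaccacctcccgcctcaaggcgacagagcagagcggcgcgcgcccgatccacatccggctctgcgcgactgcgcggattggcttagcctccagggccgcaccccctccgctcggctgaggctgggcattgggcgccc
The ETS word of Mrpl27 begins 55 bases before the start site. The other 4 sequences hold none of the 3 words. Only the reference build was searched, and no CAST sequence. These stretches therefore cannot show whether the promoters differ between the strains.

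A further 3 members are shown, chosen after the search, as examples of the words themselves: Mrpl9 (chr3:94443186-94443335, plus strand), Mrpl43 (chr19:45006443-45006592, minus strand) and Mrps27 (chr13:99344636-99344785, plus strand).
Mrpl9: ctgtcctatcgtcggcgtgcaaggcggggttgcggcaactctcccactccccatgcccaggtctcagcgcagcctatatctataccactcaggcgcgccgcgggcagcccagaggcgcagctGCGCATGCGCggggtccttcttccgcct
Mrpl43: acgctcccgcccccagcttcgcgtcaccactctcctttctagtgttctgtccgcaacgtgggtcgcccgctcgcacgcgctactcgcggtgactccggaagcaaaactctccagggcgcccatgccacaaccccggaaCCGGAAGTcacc
Mrps27: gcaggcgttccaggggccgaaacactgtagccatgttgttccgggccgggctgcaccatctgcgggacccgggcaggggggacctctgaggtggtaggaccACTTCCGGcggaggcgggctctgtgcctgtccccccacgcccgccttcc
The capitals of Mrpl9 are 2 overlapping NRF1 words on opposite strands, beginning 28 and 26 bases before the start site. Mrpl43 has the ETS word 12 bases before its start. Mrps27 has the ETS word in reverse 49 bases before its start, and its YY1 word lies 14 bases after the start, outside the printed stretch.

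**Figure D1:**
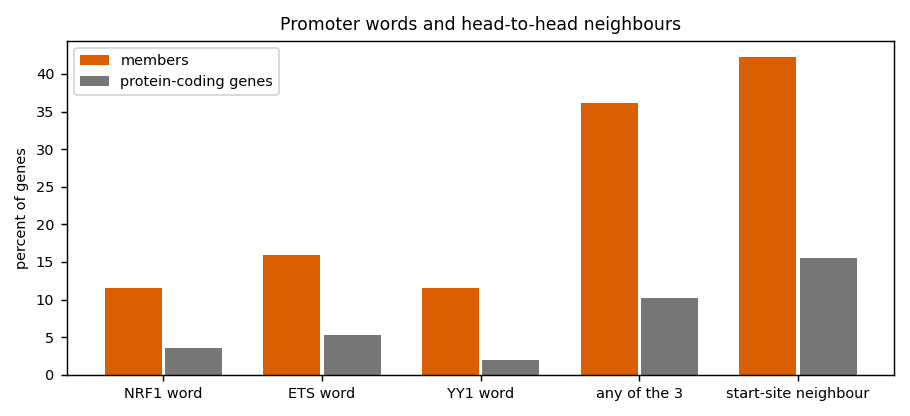
Percent of genes (vertical axis) whose promoter window holds the NRF1, ETS or YY1 word or any of them, and percent of genes with an opposite-strand protein-coding start site within 1000 bases, for the mitochondrial ribosomal protein genes and for protein-coding genes. Each bar of the members is the taller, 36.2% against 10.2% for any word and 42.3% against 15.5% for a start-site neighbour. The protein-coding genes are 17492 of any level for the words and 12293 with a mean of at least 1 FPKM for the neighbours.

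All 78 genes were expressed above a mean of 1 FPKM over the 4 libraries, the minimum used for comparisons, and 65 had a mean of at least 10 FPKM. The median level over the 49 large-subunit genes was 18.2 FPKM in F1r, 19.9 in F1i, 18.8 in CAST and 20.3 in B6. Over the 29 small-subunit genes it was 16.2 FPKM in F1r, 17.2 in F1i, 15.3 in CAST and 15.2 in B6. The large-subunit median was thus the higher in every library, while mean levels of single genes ran from 3.09 to 65.4 FPKM.

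The highest mean levels belonged to Mrpl20 (65.4 FPKM), the relative of bacterial L20, Mrps21 (61.4 FPKM), the relative of bacterial S21, and Mrpl52 (50.2 FPKM), a mitochondrion-specific large-subunit protein. Mrpl33 (41.5 FPKM), Mrps18a (40.6 FPKM) and Mrps16 (40.2 FPKM) followed, close enough to one another that their order depends on the library. Mrpl20 had 62.7 FPKM in F1r, 66.2 in F1i, 65.1 in CAST and 67.8 in B6. Mrps21 had 59.1 FPKM in F1r, 61.0 in F1i, 51.6 in CAST and 73.9 in B6, so it exceeded Mrpl20 in B6 alone. At the low end were Mrps23 (3.09 FPKM), Mrpl47 (4.18 FPKM), Mrpl1 (5.20 FPKM) and Mrpl19 (5.43 FPKM). Across the 78 genes, the mean level and the length of the most abundant transcript had a Spearman correlation of -0.63, given as a description because FPKM itself divides by length.

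**Figure D2:**
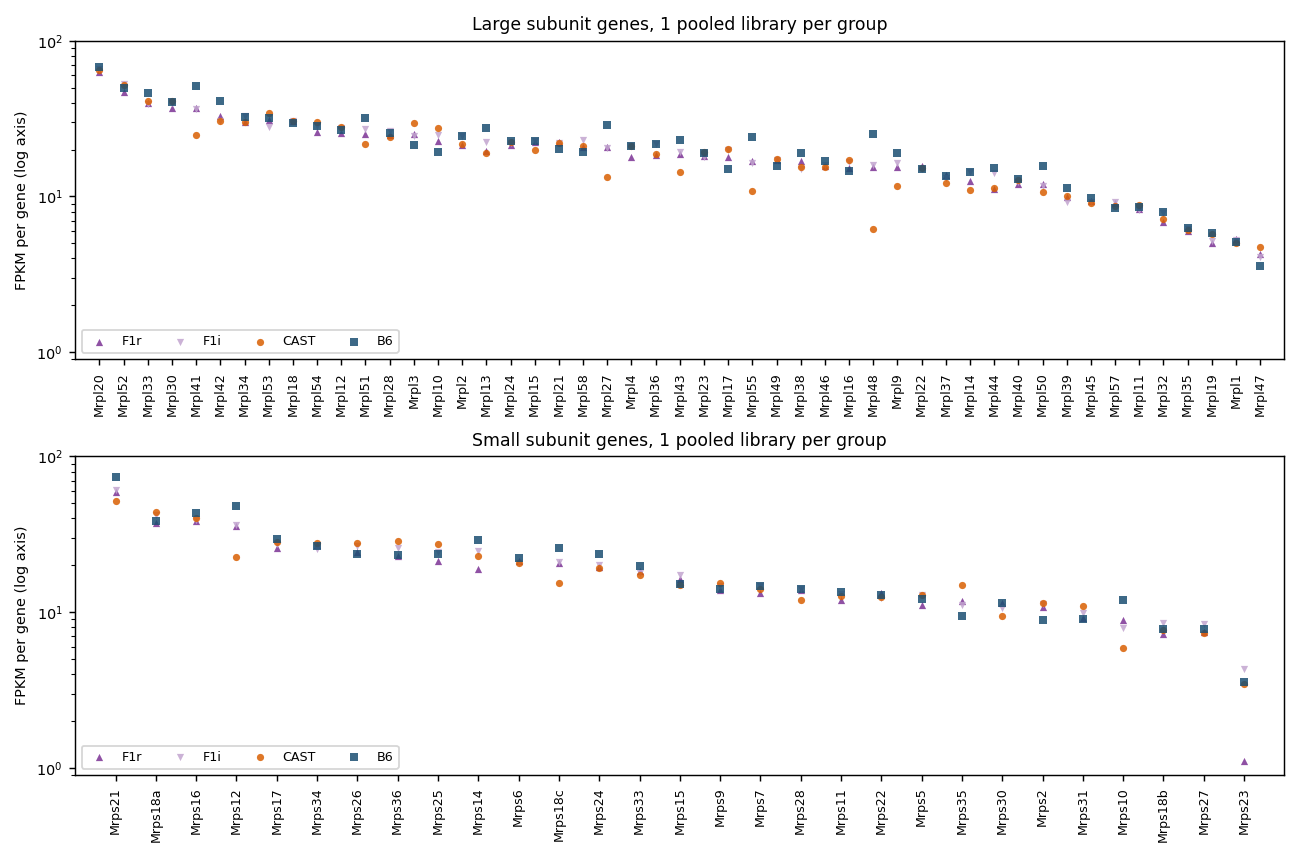
FPKM (log axis) of each of the 49 large-subunit and 29 small-subunit genes in F1r, F1i, CAST and B6, 1 point per gene. The highest points lie between 62.7 and 73.9 FPKM, the lowest is 1.11 FPKM in F1r (Mrps23) and between 3.43 and 4.09 FPKM in the other 3 libraries, with the medians of large-subunit genes between 18.2 and 20.3 FPKM and those of small-subunit genes between 15.2 and 17.2 FPKM.

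Mrpl12, the relative of the bacterial L7/L12 stalk protein that receives the translation factors, had 25.7 FPKM in F1r, 27.5 in F1i, 27.7 in CAST and 26.6 in B6. Mrpl58, a peptidyl-tRNA hydrolase that became part of the large subunit, had 20.9 FPKM in F1r, 23.0 in F1i, 21.2 in CAST and 19.2 in B6. Mrps36, which was named as a ribosomal protein and is now known as a subunit of the 2-oxoglutarate dehydrogenase complex, had 22.9 FPKM in F1r, 25.9 in F1i, 28.6 in CAST and 23.4 in B6. In these 3 genes the highest library exceeded the lowest by less than 1.5-fold. The levels of Mrps36 carry the limit that 21% of its 31-base words also occur in other genes.

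Mammals have 3 relatives of bacterial S18, of which Mrps18a is known from the large subunit and Mrps18b and Mrps18c from the small one. Mrps18a had 37.3 FPKM in F1r, 42.2 in F1i, 44.1 in CAST and 38.7 in B6. Mrps18b had 7.22 FPKM in F1r, 8.49 in F1i, 7.66 in CAST and 7.80 in B6. Mrps18c had 20.8 FPKM in F1r, 21 in F1i, 15.4 in CAST and 25.7 in B6. Mrps18a was the highest of the 3 and Mrps18b the lowest in every library, and Mrps18c alone was further apart between the parents than 1.5-fold, with 32.8% of its words shared with other genes.

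Between the parental strains, most mitochondrial ribosomal protein genes had similar levels, and the 5 that were 2-fold apart were all lower in CAST. Differences are given as log2(FPKM + 1) of CAST minus B6, and a gene was called higher or lower from a 2-fold difference on that scale. Of 78 members, 5 were lower (6.41%) and 0 were higher, while 2.26% of 13746 genes tested were lower and 2.84% were higher. Among protein-coding genes alone, 1.82% were lower and 1.07% higher. The median over members was -0.05 and that over all genes tested 0.04, with 49 of 78 members below 0 against 44.6% of all genes; with libraries rescaled to the same total both medians turned upward, to 0.27 and 0.34, and members stayed 0.07 below the rest. Under that rescaling 1 member was lower (1.28%), against 1.28% of all genes, so the higher share of lower members depends on the scaling. Over all transcripts, small RNAs included, FPKM summed to 1857428 in CAST and 2357188 in B6. With median-ratio scaling all 5 members stayed lower, against 2.41% of all genes. Of the members, 4 of 49 large-subunit and 1 of 29 small-subunit genes were lower, with medians of -0.06 and -0.05. The summed oligodendrocyte and choroid plexus markers above were also lower in CAST. The 6 microglia markers summed to 83.6 FPKM in F1r, 96.5 in F1i, 78.2 in CAST and 112 in B6, with 5 of 6 lower in value in CAST than in B6. The part of these markers in these differences was not tested. Any use of a CAST genome in the quantification is not given, and its part in the lower CAST values was not tested either.

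**Figure D3:**
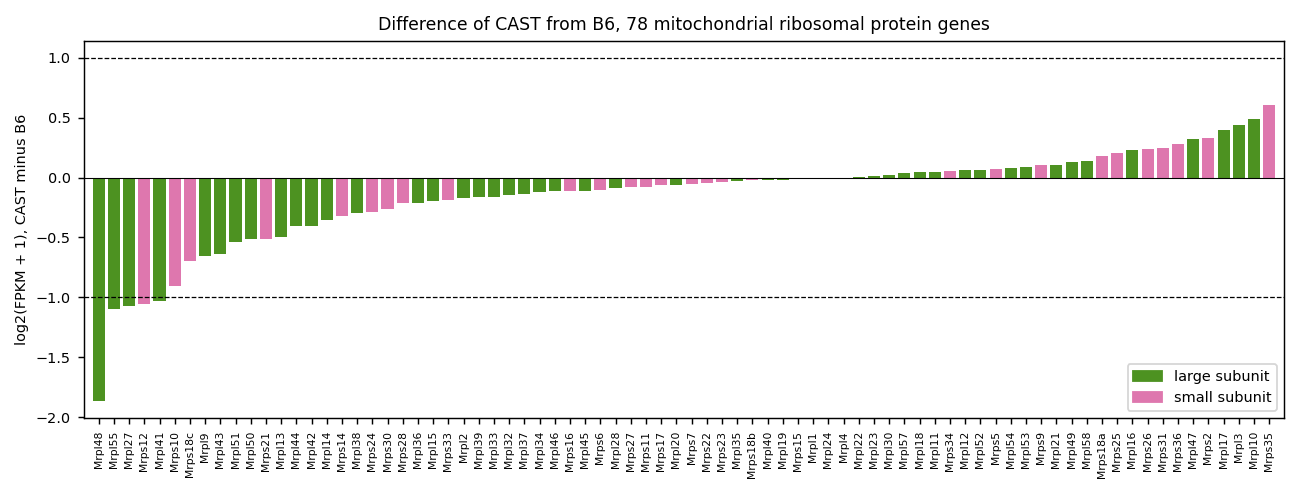
Log2(FPKM + 1) of CAST minus B6 for each of the 78 genes, ranked and coloured by subunit, with dashed lines at the 2-fold limits. The bars run from -1.87 for Mrpl48 to 0.61 for Mrps35, and 5 bars cross the lower line while none crosses the upper.

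Mrpl48 (ENSMUSG00000030706), a large-subunit protein of the central protuberance, was the furthest apart. It lies on the minus strand at chr7:100545751-100608301 (GRCm38, as all gene positions here) and overlaps Rab6a on the opposite strand. Mrpl48 had 15.4 FPKM in F1r, 15.9 in F1i, 6.19 in CAST and 25.3 in B6. B6 was 4.08 times CAST, a difference of -1.87, and both hybrids lay well inside the parental range. The estimated coverage was 506 fragments per kilobase in F1r, 588 in F1i, 203 in CAST and 1148 in B6, so that the CAST value too rested on many fragments. Rab6a had 129 FPKM in F1r, 124 in F1i, 122 in CAST and 130 in B6, and since the use of strand in the quantification is not given, its fragments cannot be fully told apart from those of Mrpl48.

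The other 4 genes were about 2-fold apart. Mrpl55 (ENSMUSG00000036860), a mitochondrion-specific large-subunit protein at chr11:59202486-59206134 on the plus strand, had 16.9 FPKM in F1r, 16.5 in F1i, 10.8 in CAST and 24.2 in B6 (-1.09). Mrpl27 (ENSMUSG00000024414), the relative of bacterial L27 near the peptidyl transferase centre, at chr11:94653767-94660089 on the plus strand, had 20.8 FPKM in F1r, 20.6 in F1i, 13.2 in CAST and 28.9 in B6 (-1.07). In both, the 2 hybrids were close to each other and lay between the parents.

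Mrps12 (ENSMUSG00000045948), the relative of the bacterial decoding-site protein S12, at chr7:28739641-28741820 on the minus strand, had 35.6 FPKM in F1r, 36.1 in F1i, 22.7 in CAST and 48.1 in B6 (-1.05). Its start site lies 172 bases from that of Sars2, the mitochondrial seryl-tRNA synthetase gene on the other strand, which had 3.24 FPKM in F1r, 3.83 in F1i, 3.47 in CAST and 3.87 in B6 (-0.12). Mrpl41 (ENSMUSG00000036850), a mitochondrion-specific large-subunit protein at chr2:24974117-24975098 on the minus strand, had 36.8 FPKM in F1r, 36.3 in F1i, 24.7 in CAST and 51.4 in B6 (-1.03). Thus Mrps12 and its neighbour did not have like differences, and Mrpl41 was only just past the 2-fold limit, like Mrps12 and Mrpl27.

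Just outside the limit stood Mrps10, the relative of bacterial S10, with 8.88 FPKM in F1r, 7.89 in F1i, 5.90 in CAST and 12 in B6 (-0.91). Its FPKM ratio of B6 to CAST was 2.03, and it missed the limit through the pseudocount of 1. With a 1.5-fold limit, 9 members were lower and 1 was higher, while 6.07% of all genes were lower and 6.05% higher. The additional lower genes were Mrps10, Mrps18c (-0.70), Mrpl9 (-0.66) and Mrpl43 (-0.64), and the higher one was Mrps35.

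**Figure D4:**
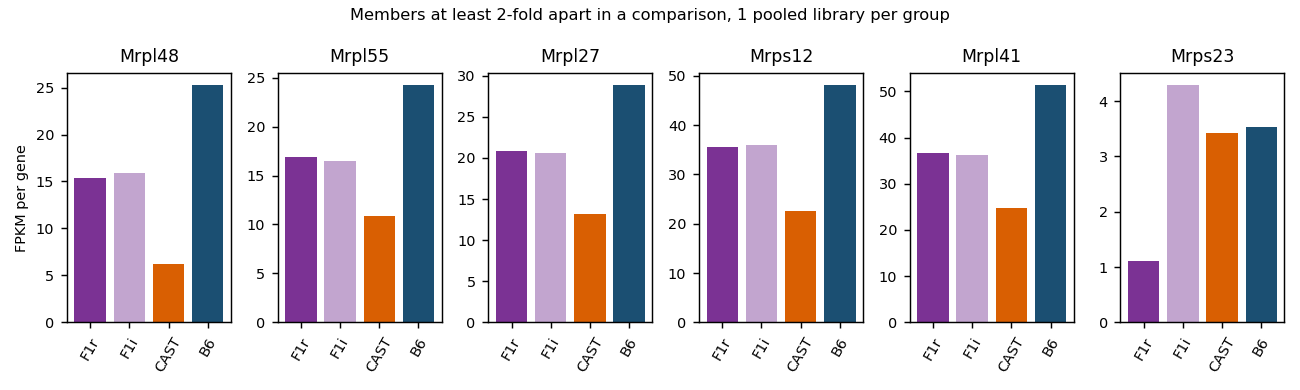
FPKM of the 6 members that were at least 2-fold apart in any comparison, with 1 bar each for F1r, F1i, CAST and B6. Mrpl48, Mrpl55, Mrpl27, Mrps12 and Mrpl41 have their lowest bar in CAST, their highest in B6 and both hybrids between, whereas Mrps23 has its lowest bar, 1.11 FPKM, in F1r.

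Values higher in CAST were smaller in size. Mrps35, a mitochondrion-specific small-subunit protein, had 11.7 FPKM in F1r, 11.1 in F1i, 14.9 in CAST and 9.46 in B6 (0.61). Mrpl10, a relative of the bacterial stalk-base protein L10, had 22.6 FPKM in F1r, 24.8 in F1i, 27.4 in CAST and 19.3 in B6 (0.49). Mrpl3, the relative of bacterial L3, had 25.2 FPKM in F1r, 24.3 in F1i, 29.4 in CAST and 21.5 in B6 (0.44). In these 3 genes both hybrids lay between the parents, and the next were Mrpl17 (0.39), Mrps2 (0.33) and Mrpl47 (0.32), all below 1.5-fold.

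The transcripts behind these sums moved unevenly. In Mrpl48, a coding transcript of 1625 bases had 8.28 FPKM in F1r, 7.86 in F1i, 1.18 in CAST and 16.6 in B6, whereas a coding transcript of 4285 bases had 4.58 FPKM in F1r, 4.46 in F1i, 2.72 in CAST and 5.25 in B6. The shorter one made up 19.0% of the gene's FPKM in CAST and 65.5% in B6. In Mrps12, the 722-base transcript had 23.9 FPKM in F1r, 24.8 in F1i, 9.49 in CAST and 34.8 in B6, and an 883-base transcript had 11.2 FPKM in F1r, 9.64 in F1i, 11.8 in CAST and 10.1 in B6. The parental difference of both genes therefore lay mainly in 1 transcript.

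In Mrpl55, coding transcripts of 792 and 757 bases were listed at 0 in CAST and had 6.82 and 3.57 FPKM in B6, while the main transcript of 940 bases had 7.70 FPKM in F1r, 9.0 in F1i, 8.10 in CAST and 11.1 in B6. Taken alone, that transcript differed by -0.42, below 1.5-fold. Mrpl27 and Mrpl41 each rested on 1 transcript. The 756-base transcript of Mrpl27 had 19.8 FPKM in F1r, 18.9 in F1i, 11.8 in CAST and 28.1 in B6, and the 776-base transcript of Mrpl41 had 36.6 FPKM in F1r, 35.7 in F1i, 24.7 in CAST and 50.4 in B6. FPKM of overlapping transcripts are estimates that divide shared fragments, so a transcript's value is less certain than its gene's sum.

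Of the 6 genes furthest on the higher side in CAST, Mrps35 and Mrpl3 had large shares of transcripts annotated as other than protein-coding. In Mrps35 a 467-base transcript annotated as processed and without a coding frame had 8.22 FPKM in F1r, 7.96 in F1i, 11 in CAST and 6.25 in B6. The 4162-base coding transcript of Mrps35 had 2.98 FPKM in F1r, 2.66 in F1i, 3.37 in CAST and 2.78 in B6. In Mrpl3 a 457-base transcript annotated for nonsense-mediated decay had 5.66 FPKM in F1r, 5.86 in F1i, 10.05 in CAST and 3.12 in B6, and a 2309-base coding transcript had 4.99 FPKM in F1r, 4.40 in F1i, 2.40 in CAST and 6.51 in B6. Within Mrpl3 the 2 transcripts thus went in opposite directions.

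Fragments from near-identical copies could also enter these values. Of its 31-base words, Mrpl27 shared 35.5% with other genes, Mrpl41 21.1%, Mrpl48 7.89%, and Mrpl55 and Mrps12 none. The processed pseudogene Mrpl48-ps, which holds 4.19% of the words of Mrpl48, had 5.12 FPKM in F1r, 4.40 in F1i, 8.23 in CAST and 2.49 in B6. The pseudogene Gm6304, which holds 28.0% of the words of Mrpl27, had 4.08 FPKM in F1r, 7.14 in F1i, 7.14 in CAST and 2.12 in B6. The 2 pseudogenes were highest or level with the highest in CAST and lowest in B6, the opposite of their parent genes. Summing a gene with its pseudogenes by FPKM times length gave -1.35 for Mrpl48, against -1.71 for the gene alone, and -0.82 for Mrpl27, against -1.18 alone, so that Mrpl27 was no longer 2-fold apart. Among the 36 members with under 5% of shared words and no expressed overlapping gene, 2 were lower (Mrpl55 and Mrps12) and 0 higher. Of all genes tested, 2.26% were lower and 2.84% higher. High shares were also found in Mrpl53 (84.4%), Mrps34 (35.6%) and Mrpl22 (29.8%), whose levels are uncertain to that extent.

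In the 10 members at least 1.5-fold apart between the parents, both hybrids lay between them. Position was measured as the share of the way to CAST, with 0 at the B6 level and 1 at the CAST level on FPKM. Over these 10 genes the median position was 0.510 in F1r, with a range of 0.417 to 0.548, and 0.482 in F1i, with a range of 0.308 to 0.672. Mrpl48 was at 0.518 in F1r and 0.491 in F1i, Mrps12 at 0.490 in F1r and 0.474 in F1i, and Mrpl41 at 0.547 in F1r and 0.564 in F1i. These genes were chosen for their parental distance, which leaves room for a hybrid in between, and over all members both hybrids lay within the parental range in 29 of 78 (37.2%), against 41.3% of all genes.

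Between the reciprocal crosses, F1r minus F1i, 1 of 78 members was at least 2-fold lower and 0 were higher, while 0.262% of all genes were lower and 0.233% higher. The median was -0.05 over members and 0.03 over all genes, with 51 of 78 members below 0 against 41.9% of all genes. With libraries rescaled to the same total it was 0.21 over members and 0.27 over all genes, so the sign depends on the scaling. With median-ratio scaling it was -0.08 over members and 0.0005 over all genes. The members' median was below that of all genes under each of these scalings. From a 1.5-fold difference, 1 member was lower and 0 higher, against 0.771% and 1.17% of all genes. The 3 blood markers, all lower in value in F1r than in F1i, summed to 275 FPKM in F1r, 434 in F1i, 321 in CAST and 399 in B6. Lower in value in F1r too were 6 of 6 microglia, 4 of 4 choroid plexus, 5 of 6 oligodendrocyte and 4 of 6 astrocyte markers. By contrast, 7 of 8 neuronal and 3 of 4 endothelial markers were higher in value in F1r than in F1i. The part of these markers in the differences was not tested. The lower gene was Mrps23 (ENSMUSG00000023723), a mitochondrion-specific small-subunit protein and the member with the lowest mean level. Mrps23 had 1.11 FPKM in F1r, 4.29 in F1i, 3.43 in CAST and 3.54 in B6 (-1.32), so that F1r stood apart from the other 3 libraries.

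Coverage of Mrps23 was low, at an estimated 36.6 fragments per kilobase in F1r, 158 in F1i, 113 in CAST and 161 in B6. Its transcripts were split differently in each library: the 332-base transcript was listed at 0 in F1r and had 3.39 FPKM in F1i, 1.13 in CAST and 1.4 in B6. The 1332-base transcript was listed at 0 in F1r and had 0.67 FPKM in F1i, 1.58 in CAST and 2.12 in B6.

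Next in size were Mrpl44 and Mrps14, both below 1.5-fold. Mrpl44, a large-subunit protein with a fold like that of RNase III, had 11.1 FPKM in F1r, 14.2 in F1i, 11.3 in CAST and 15.2 in B6 (-0.32). Mrps14, the relative of bacterial S14, had 18.9 FPKM in F1r, 24.6 in F1i, 23.1 in CAST and 29.0 in B6 (-0.36). Mrpl44 in F1r was thus at the CAST level and in F1i near the B6 level, while Mrps14 in F1r was below both parents. Mrpl36 (-0.22) followed on the lower side, and Mrpl38 (0.16), Mrps10 (0.15), Mrpl53 (0.15) and Mrpl42 (0.12) were the 4 members furthest on the higher side. The start site of Mrpl44 lies 125 bases from that of Wdfy1, which overlaps it and had 10.9 FPKM in F1r, 8.95 in F1i, 14.5 in CAST and 3.55 in B6.

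The mean of both hybrids and the mean of both parents were close for every member. On log2(FPKM + 1), hybrids minus parents, the differences ran from -0.28 to 0.14, and 0 of 78 members were higher and 0 lower, against 0.0436% and 0.109% of all genes. The median was -0.04 over members and -0.01 over all genes, with 51 of 78 members below 0 against 52.5% of all genes. From a 1.5-fold difference there were again 0 higher and 0 lower members, against 0.182% and 0.364% of all genes. The lowest were Mrps23 (-0.28), Mrps14 (-0.25), Mrpl42 (-0.17) and Mrpl53 (-0.17), and the highest were Mrps15 (0.14), Mrpl58 (0.12), Mrps2 (0.10) and Mrpl17 (0.10).

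Across all 3 comparisons, 67 of 78 members stayed below 1.5-fold. The same count over all genes was not made. In CAST minus B6 alone, 1 of 78 members was at least 1.5-fold higher and 9 lower, against 6.05% and 6.07% of all genes. By this count the members did not stand apart from all genes as steady. The highest library exceeded the lowest by a median of 1.18-fold over members, 1.25-fold over all genes with a value above 0 in every library and 1.23-fold over protein-coding genes. The members' share of the FPKM summed over genes, without transcripts under 200 bases and small RNAs, was 0.382% in F1r, 0.386% in F1i, 0.390% in CAST and 0.387% in B6. Their share of the FPKM of all transcripts, small RNAs included, was 0.0794% in F1r, 0.0687% in F1i, 0.0826% in CAST and 0.0728% in B6, so that how steady the share was depends on the total used.

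Of 79 cytosolic ribosomal protein genes tested, 14 were at least 2-fold lower in CAST than in B6 and 0 higher, with a median of -0.32 and 66 genes below 0, while 2.26% of all genes were lower. Of 35 nuclear complex I subunit genes, 1 was lower and 0 higher, with a median of -0.12 and 29 genes below 0. The difference between these lists and the mitochondrial ribosomal proteins (median -0.05, 49 of 78 below 0) was not tested, and many cytosolic ribosomal protein genes have near-identical pseudogene copies.

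In the other lists of mitochondrial translation and its regulators, no gene was 2-fold apart between CAST and B6 on log2(FPKM + 1), although on FPKM itself Mtrf1, Pars2 and Rbfa were over 2-fold lower in CAST and missed the limit through the pseudocount. The list of mitochondrial ribosomal proteins with other names had a median of 0.05 over 5 genes. Dap3, a GTP-binding small-subunit protein, had 20.4 FPKM in F1r, 20.1 in F1i, 15.4 in CAST and 28.2 in B6 (-0.84), the same order as the 5 genes above. Ptcd3, a pentatricopeptide protein of the small subunit, had 14.9 FPKM in F1r, 14.4 in F1i, 19.4 in CAST and 14.3 in B6 (0.41). Aurkaip1 (0.35) and Chchd1 (-0.12) were the next on either side.

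The 13 translation factors had a median of -0.00. Mtrf1, a member of the mitochondrial release factor family, had 1.93 FPKM in F1r, 1.94 in F1i, 1.04 in CAST and 2.88 in B6 (-0.93). Gfm2, the factor that helps split the ribosome after termination, differed by -0.58, and Mtrf1l, the release factor for most stop codons, by 0.43. Mtfmt, which formylates the initiator tRNA, differed by 0.34. The elongation factor Tufm, named here after its values were seen, had 19.8 FPKM in F1r, 21.6 in F1i, 16.1 in CAST and 23.8 in B6 (-0.53).

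The 22 genes for tRNA charging had a median of 0.08. Pars2, the prolyl-tRNA synthetase, had 2.61 FPKM in F1r, 2.85 in F1i, 1.84 in CAST and 3.84 in B6 (-0.77), and Gatc, a subunit of the amidotransferase that makes glutaminyl-tRNA, differed by -0.58. Gatb, another subunit of the same enzyme, had 6.17 FPKM in F1r, 5.60 in F1i, 7.95 in CAST and 4.64 in B6 (0.67). Lars2, the leucyl-tRNA synthetase, differed by 0.32. These 2 subunits of the amidotransferase, Gatc and Gatb, thus went in opposite directions.

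The 22 ribosome assembly and ribosomal RNA modification genes tested had a median of -0.02. Rbfa, a small-subunit assembly factor, had 8.01 FPKM in F1r, 8.23 in F1i, 5.16 in CAST and 10.8 in B6 (-0.94). Trub2, a pseudouridine synthase family protein, had 8.19 FPKM in F1r, 7.84 in F1i, 12 in CAST and 6.61 in B6 (0.77). Mterf3 had 10.3 FPKM in F1r, 9.64 in F1i, 15.4 in CAST and 9.21 in B6 (0.69), and Nsun4, a methyltransferase of ribosomal RNA, differed by -0.45. Higher and lower genes were thus mixed within the list.

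The 12 genes for maintaining and transcribing mitochondrial DNA had a median of -0.10. Polrmt, the mitochondrial RNA polymerase, had 6.77 FPKM in F1r, 6.21 in F1i, 5.99 in CAST and 9.27 in B6 (-0.55), and Twnk, the helicase, had 4.37 FPKM in F1r, 4.11 in F1i, 4.66 in CAST and 2.95 in B6 (0.52). Slirp, an RNA-binding protein, differed by -0.27 and Polg, the DNA polymerase, by 0.19. Twnk overlaps Mrpl43 on the opposite strand, with start sites 779 bases apart, and the 2 genes differed in opposite directions.

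The 8 nuclear regulators had a median of 0.18. Gabpa, the DNA-binding subunit of GABP, had 7.54 FPKM in F1r, 5.79 in F1i, 8.34 in CAST and 5.82 in B6 (0.45), and its partner Gabpb1 differed by 0.36. Pprc1, a coactivator related to PGC-1alpha, differed by -0.28 and Esrra, a nuclear receptor, by 0.00. The ribosomal RNAs of the same particle had like levels in both parents: mt-Rnr1, of the small subunit, had 7741 FPKM in F1r, 7832 in F1i, 8102 in CAST and 8000 in B6, and mt-Rnr2, of the large subunit, had 32134 FPKM in F1r, 35164 in F1i, 33669 in CAST and 31991 in B6.

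**Figure D5:**
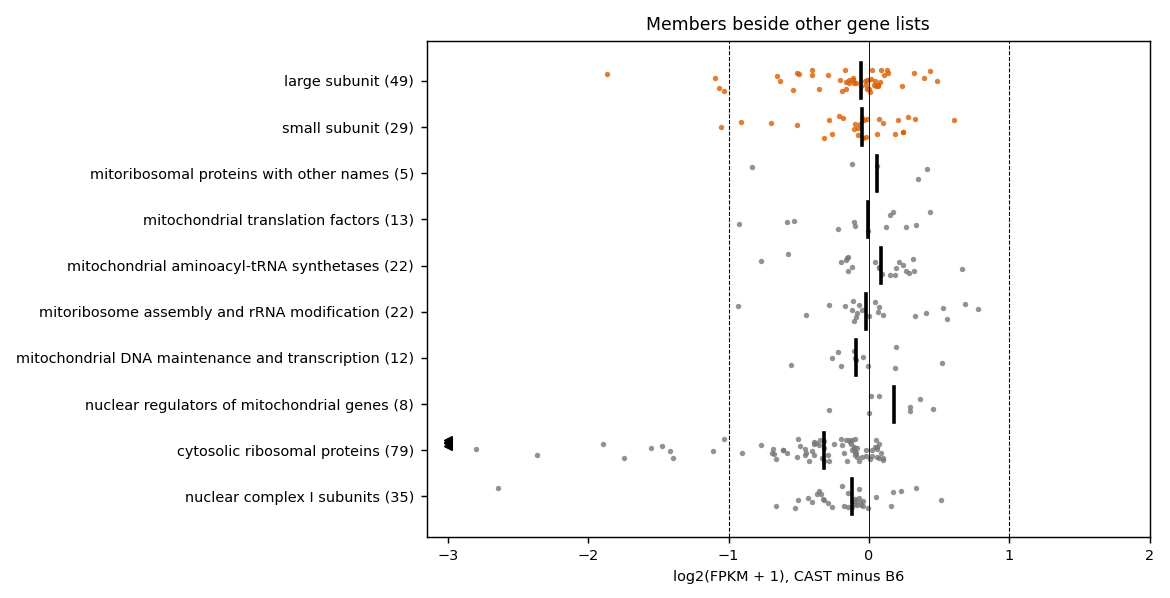
Log2(FPKM + 1) of CAST minus B6 for each tested gene of the mitochondrial ribosomal proteins and of 8 comparison lists, with a bar at each list's median. The members are drawn as large and small subunit, with medians of -0.06 and -0.05. Arrowheads at -3 stand for 4 cytosolic ribosomal protein genes beyond the axis. The median of the cytosolic ribosomal proteins is -0.32 and that of the nuclear regulators 0.18.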

How the data were processed

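Brain total RNA of 4 pooled libraries was analysed. FPKM per transcript were deposited by the authors, 1 table per library. Tools named in the submitters' processing notes are Cufflinks 2.2.1, Cuffdiff, HISAT2, Trimmomatic 0.36 and bcl2fastq 2.20, and the build named there is mm9. The tables' coordinates are nevertheless those of GRCm38: all 323 member transcripts were found in GENCODE M21, and 96.3% had the same start and end. Per the labels' protocols the library kit was strand-specific. Not given in the sources used here were the handling of strand and of fragments with several matches, and any use of a CAST genome. The labels' protocols speak of left hemispheres, the series design of whole brain.

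FPKM were summed per gene over transcripts of at least 200 bases, without small RNAs. This left 45180 genes, of which 13746 had a mean of at least 1 FPKM. Differences were taken on log2(FPKM + 1), which understates changes of low genes; that of hybrids minus parents used the log2 of each pair's mean. With 1 library per group there was no test. Shared sequence was the percentage of 31-base words also found in other genes of GENCODE M21. Depth was estimated from the lowest non-zero FPKM steps of transcripts of at least 1500 bases, assuming 200 bases taken off their length, and is approximate. Python 3.11.15, numpy 2.4.6, pandas 2.3.3 and matplotlib 3.10.9 were used, and the computations were tested on simulated data.

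The members, lists and alternatives were chosen with earlier results of these data known. Genes were named by a rule: members at least 2-fold apart, the 6 largest differences each way between CAST and B6 and the 4 largest each way in the other comparisons, the 6 highest and 4 lowest levels, 20% or more shared words, 8 members of known special role, and the 2 largest differences each way in each other list. Mrpl9, Mrpl43, Mrps27, Tufm, the ribosomal RNAs, the pseudogenes and the start-site neighbours were added to these with their values known. The alternatives changed the pseudocount, the minimum level, the scaling, the summing over transcripts, the fold limit and the members kept by shared sequence; 2 more, coding transcripts alone and sums with pseudogenes, were chosen after seeing the data.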

Additional observations from a re-analysis of the deposited data

How the results depend on the processing

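Rescaling the libraries to the same total moved the most. The median of CAST minus B6 over members became 0.27 and that of F1r minus F1i 0.21, with all-gene medians of 0.34 and 0.27. There 1 member (Mrpl48, -1.56) remained at least 2-fold lower in CAST, against 1.28% of all genes. Mrpl55 gave -0.77, Mrpl27 -0.74, Mrps12 -0.72 and Mrpl41 -0.70. Median-ratio scaling kept all 5 genes 2-fold lower, against 2.41% of all genes. With a 1.5-fold limit 9 members were lower and 1 higher in CAST, against 6.07% and 6.05% of all genes. Among members with under 5% shared words and no overlap 2 were lower, against 2.26% of all genes. A pseudocount of 0.1 added Mrps10 (-1.01), while the lower share of all genes became 3.58%. Coding transcripts alone gave Mrps10 -1.08 and Mrps12 -0.96. The most abundant transcript alone gave Mrpl55 -0.42, and brought Mrps18c to the 2-fold limit. With a minimum of 5 FPKM, 0 members were lower in F1r than in F1i, because Mrps23 left the comparison. The other alternatives that could be run kept these counts within 1.5 times, and no gene called 2-fold apart changed its sign. On log2(FPKM + 1) the median position of the 10 genes at least 1.5-fold apart was 0.428 in F1r and 0.391 in F1i. The cause of these shifts was not tested. No paired analysis was possible because each group was 1 library and the labels carry no replicate numbers, and for the same reason no replicate could be left out. FPKM hold no counts, so depth limits low members such as Mrps23 most.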

Other observations

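Some processed pseudogenes of the mitochondrial ribosomal proteins were expressed above the minimum, and 4 of these were at least 2-fold higher in CAST. Of 67 processed pseudogenes that hold at least 1% of the 31-base words of a member, 9 passed the minimum level. Of these, 6 had a difference above 0, 4 were at least 2-fold higher in CAST than in B6 and 0 were lower. Of 13746 genes tested, 7613 had a difference above 0, 390 (2.84%) were higher and 310 (2.26%) lower. Of the 12293 protein-coding genes among them, 6643 had a difference above 0, 132 (1.07%) were higher and 224 (1.82%) lower. Genes higher in CAST were thus more frequent outside protein-coding genes, so 2.84% and 7613 of 13746 are low comparators for pseudogenes. The 4 higher ones were Mrpl48-ps, Gm6304, Gm13328, related to Mrps5 (log2 difference 1.57), and Gm13552, related to Mrps18b (1.17). Gm5776, related to Mrps33, had a value of -0.67. Adding the pseudogenes by FPKM times length turned Mrps18b to 0.13, against -0.08 for the gene alone on the same scale. Part of the fragments of such copies cannot be assigned to 1 gene, and their part in these values was not tested.

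Over the 27 tested pairs of a mitochondrial ribosomal protein gene and a gene that starts beside it on the opposite strand, the Spearman correlation of the 2 differences, CAST minus B6, was -0.04, given as a description. Among the neighbours 1, Wdfy1 beside Mrpl44, was 2-fold higher in CAST (1.77) and 0 were lower, while 2.84% of all genes tested were higher and 2.26% lower.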
